A study of Saccharomyces cerevisiae with 2 samples.

Results

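This account covers 51 yeast genes that encode subunits of 3 transcription coactivators: 23 genes of Mediator, 15 of TFIID (5 of which also belong to SAGA) and 13 further genes of SAGA. They were chosen by name, from current gene symbols or their synonyms in the array's annotation, out of 5094 genes probed. Values on both arrays were listed for 25 of the 51. The data come from a genetic interaction mapping (GIM) screen in *Saccharomyces cerevisiae*, in which barcoded DAmP strains were crossed as a pool to a query deletion and haploid double mutants were grown for 18 generations under G418 and nourseothricin. A DAmP allele lowers the messenger level of a gene by disturbing the end of its transcript.

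The query pool held haploid strains derived from BY4742/BY4741 with the query deletion, and its barcodes were labelled with Cy3. The reference pool was a GIM pool of the same strain background, labelled with Cy5, and its query is not named. Both pools are mixtures of strains, so each value is the relative abundance of a barcode and not a growth rate. The probes name a gene and not its allele, so whether a value belongs to a DAmP strain or to another mutant of that gene cannot be told apart. There were 2 arrays in a single group, 1 for each of 2 screens that the series text calls independent. The labels name no separate cultures, so n = 2 counts arrays and the spread between them may be partly technical.

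Titles name *PIH1* as the query gene, and the descriptions give *RSA1*. Of 34 genes measured within 50 kb of *PIH1*, counting *PIH1* itself, 30 had a negative mean ratio, and the median was -1.01. The 42 genes within 50 kb of *RSA1* had a median of 0.04. Genes close to a query deletion seldom recombine with it, so low ratios around *PIH1* are the basis for reading the values as query pool over reference pool, a direction that is likely rather than stated. If it ran the other way, every sign below would turn, "more" and "less" would change places and ranks would count from the bottom, while the sizes would stay. The *PIH1* gene itself stood at 1.002 on array 1 and 1.02 on array 2, against the low values of its neighbours. Ratios were wider on array 2, with a median absolute deviation 1.81 times that of array 1. All values are log2 ratios centred on each array's median, and each unit is a 2-fold difference. The log base was inferred from the range of the values; with another base each ratio would be multiplied by a constant.

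Coactivators pass signals from activators bound to DNA on to RNA polymerase II. TFIID carries the TATA-binding protein (TBP) and recognises core promoters. SAGA also delivers TBP, acetylates histone H3 through Gcn5 and removes ubiquitin from histone H2B through Ubp8. Mediator bridges activators and the polymerase: its head and middle contact the polymerase, its tail contacts activators, and its kinase module binds reversibly. Pih1 belongs to R2TP, a co-chaperone of HSP90 that helps assemble small nucleolar ribonucleoproteins and other large complexes. In human cells R2TP is known to act with the TTT co-chaperone on kinases of the PIKK family, to which Tra1, a pseudokinase subunit of SAGA, belongs.

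Many of the 51 genes had no listed value. Of the 49 with a named probe, 24 (49.0%) lacked a value on at least 1 array, against 17.6% of all 5094 genes probed, of which 82.4% had both. Of these 24, 3 had a value on array 1 alone and 21 had none. *TAF2* and *SUS1* had no probe named for them in the annotation used here, nor did *TRA1*, which is not among the 51. All 4 genes of the SAGA acetyltransferase module (*GCN5*, *ADA2*, *NGG1* and *SGF29*) lacked a value. So did *SPT7*, *SPT20* and *HFI1* of the SAGA core, *SGF73* of its deubiquitinase module, and *TAF5* and *TAF10* among the TAFs (TBP-associated factors) shared with TFIID. In TFIID, *TAF13* and *TAF14* also lacked one.

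In Mediator no value was listed for *SRB5* and *ROX3* of the head, *SRB7*, *CSE2* and *SOH1* of the middle, *MED2*, *GAL11* and *SIN4* of the tail, or *SSN3*, the cyclin-dependent kinase of the kinase module. Split by what is known of their need for growth in the standard laboratory strain, a split made after the values were seen, 17 of 22 probed essential members had values on both arrays and 8 of 26 probed dispensable members did. *ROX3* was left out of that split. The same split was not made over all genes probed, so this difference has no background beside it. The filter that decides which values are listed is not given in the sources used here, and its part in this difference was not tested.

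**Figure D1:**
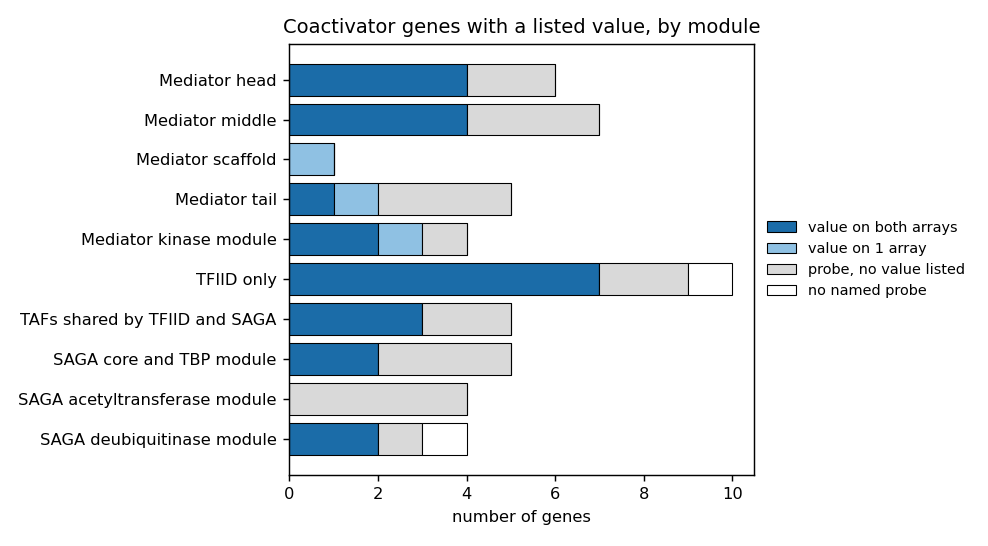
Number of coactivator genes (horizontal axis) in each module by what the arrays list: a value on both arrays, a value on 1 array, a probe without a listed value, or no named probe. The TFIID-only genes have 7 of 10 measured on both arrays, while the SAGA acetyltransferase module has 0 of 4.

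The 25 measured genes were spread unevenly. Their median ratio was 0.38 (0.20 on array 1 and 0.51 on array 2), against -0.01 over all 4048 genes tested. On both arrays, 15 of them were above 0, against 34.7% of all genes tested, 4 were below 0, against 33.9%, and 6 had opposite signs, against 31.4%. At or above 1 on both arrays stood 3 members, *SRB6*, *MED8* and *SPT3*, beside a background of 6.4% of all genes tested. None stood at or below -1 on both arrays, beside 2.03%.

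No member passed the test. By limma's moderated test against 0, with Benjamini-Hochberg adjustment over all 4048 genes, 0 members were called, and the background of calls was 0%. Adjusted p over the members ran from 0.227 to 0.977. At an unadjusted p under 0.05 there were 6 members with positive ratios (*SRB6*, *MED8*, *MED1*, *SPT3*, *SGF11* and *UBP8*), beside 11.8% of all genes, and 1 with a negative ratio (*MED11*), beside 4.97%. When both arrays were first brought to equal median absolute deviations (called scaling below), limma called those same 6 positive members (background 8.97% positive) and no negative one (background 2.3%). After quantile normalization it again called the same 6 (background 8.87% positive and 1.85% negative). The smallest p of an exact two-sided test by sign flips is 0.5 for 2 arrays, so every call rests on the variance that limma shares between genes.

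**Figure D2:**
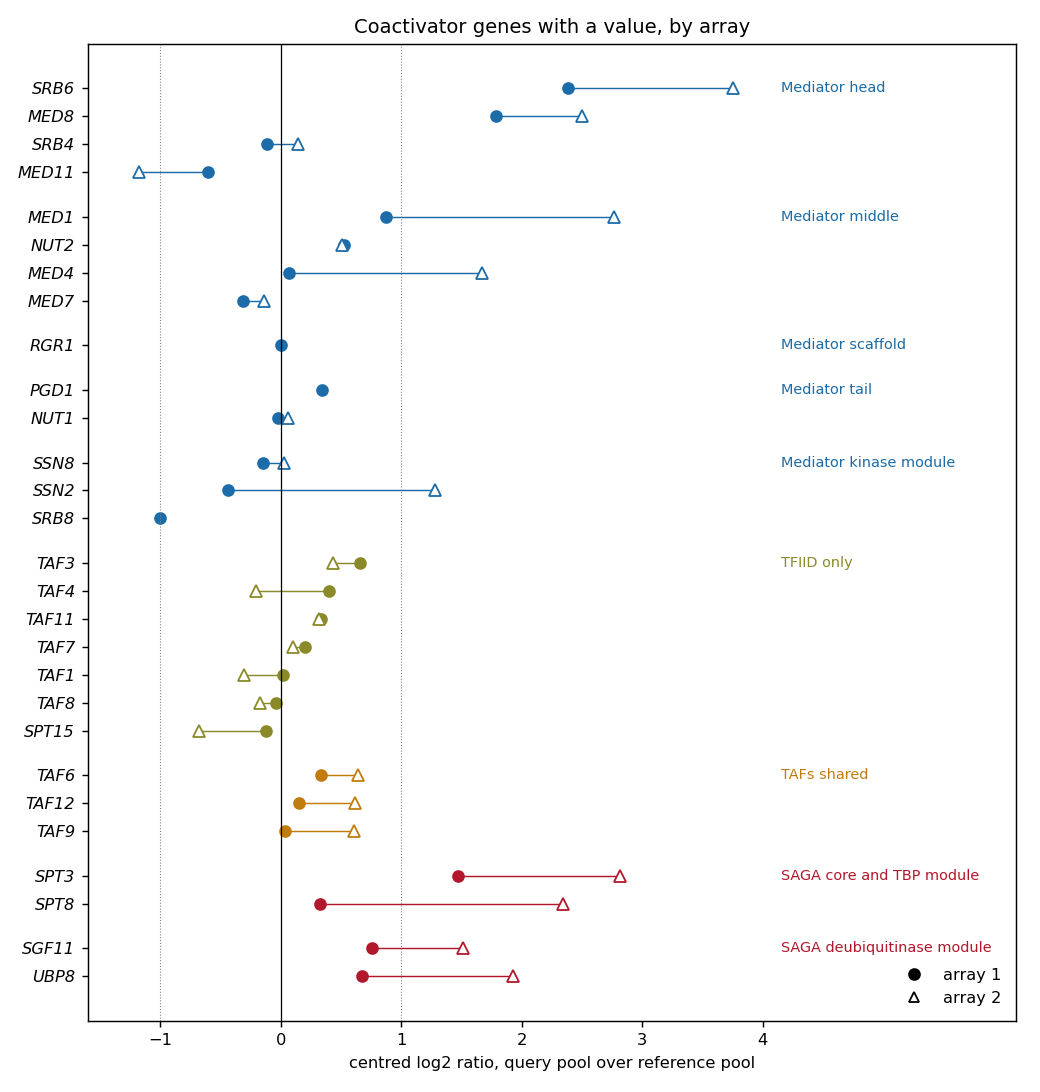
Centred log2 ratio, query over reference (horizontal axis), for the 28 coactivator genes with a value, by module; filled circles are array 1, open triangles array 2, and dotted lines mark -1 and 1. The SAGA genes *SPT3*, *SPT8*, *SGF11* and *UBP8* lie above 0 on both arrays, while the TFIID-only genes lie within 0.68 of 0.

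The Mediator head, the module built around Srb4 that contacts the polymerase, held both the highest and the lowest member. *SRB6*, which encodes head subunit Med22, stood at 2.38 on array 1 and 3.76 on array 2. Both values lie far above the arrays' medians, and the gene ranked 66 from the top of 4048. Its mean of 3.07 ± 0.97 (SD, n = 2, here and below) is 8.39-fold more barcode in the query pool than in the reference pool (limma adjusted p = 0.227). All 4 of its probes had values, which lay between 2.06 and 2.75 on array 1 and between 3.65 and 3.86 on array 2, so that the probes of one array did not overlap those of the other.

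*MED8*, which encodes another head subunit, stood at 1.79 and 2.50 on arrays 1 and 2, a mean of 2.15 ± 0.51 or 4.43-fold (limma adjusted p = 0.227). The size on array 2 was 1.40 times that on array 1, less than the ratio of the arrays' widths. Its 4 probes were close on array 1 (1.71 to 1.85) and ran from 1.86 to 3.56 on array 2, the widest range among the members' probes.

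The other measured head genes did not stand with these. *SRB4*, which encodes the essential scaffold Med17, stood at -0.11 and 0.14 on arrays 1 and 2, a mean of 0.01 ± 0.18. The mean takes the opposite sign without centring and after either scaling. *MED11*, whose product sits with Med22 and Med17 in the head, had 1 probe with a value, at -0.60 and -1.18 on arrays 1 and 2, negative on both. Its mean of -0.89 ± 0.41, or 1.85-fold less in the query pool, lay at percentile 4.05 of all genes tested (limma adjusted p = 0.270). After scaling its mean was -0.84 ± 0.05, with an adjusted p of 0.0557. Over the 4 head genes the means thus ran from -0.89 to 3.07, with a median of 1.08.

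In the middle module, *MED1* stood at 0.87 on array 1 and 2.77 on array 2. Its mean was 1.82 ± 1.34 or 3.53-fold (limma adjusted p = 0.287), just outside the limit of 1 on array 1. After scaling it stood at 1.61 ± 0.63 with an adjusted p of 0.0372. *MED4* had a single probe with values of 0.07 and 1.67 on arrays 1 and 2, so that array 2 alone decided its mean of 0.87 ± 1.13.

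*NUT2*, which encodes Med10, had nearly the same value on both arrays (0.52 and 0.51, mean 0.52 ± 0.01). *MED7*, which encodes a subunit that pairs with Srb7, stood at -0.31 and -0.14 on arrays 1 and 2. Of the 4 measured genes of the middle, 3 were positive and 1 was negative on both arrays, with a median of 0.69.

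Tail, scaffold and kinase genes were measured thinly. *NUT1*, which encodes the tail subunit Med5, stood at -0.02 and 0.06 on arrays 1 and 2, and the sign of its mean of 0.02 ± 0.06 turned without centring. *PGD1*, another tail gene, had 0.34 on array 1 alone. *RGR1*, which encodes the scaffold that joins the modules, had 0.01 there.

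In the kinase module, *SSN8*, the cyclin C gene, stood at -0.15 and 0.03 on arrays 1 and 2. *SRB8*, which encodes Med12, had a single value of -1.0, on array 1. *SSN2* encodes Med13, which tethers the kinase module to the core. It stood at -0.44 on array 1 and 1.28 on array 2, a mean of 0.42 ± 1.22. The arrays disagreed on its direction beyond the spread of its 4 probes, which lay between -0.65 and -0.24 on array 1 and between 1.01 and 1.73 on array 2. *NUT1*, *SSN8* and *SSN2*, the tail and kinase genes measured on both arrays, had opposite signs there, beside 31.4% of all genes tested. For *NUT1* and *SSN8* both values lay near 0.

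**Figure D3:**
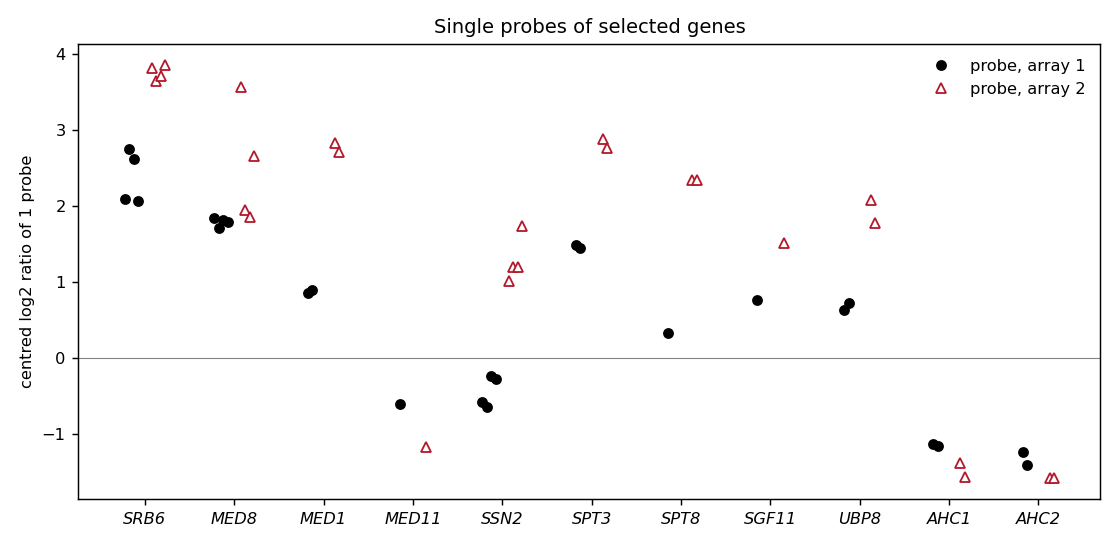
Centred log2 ratio (vertical axis) of each probe of 11 genes; black circles are probes on array 1 and red triangles probes on array 2. *SSN2* has all 4 probes below 0 on array 1 and above 0 on array 2, whereas the 2 probes of *SPT3* lie at 1.45 and 1.49 on array 1 and at 2.76 and 2.88 on array 2.

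TFIID genes lay near 0. Of the 10 measured, shared TAFs included, 9 had a mean within 0.5 of 0, beside 70.1% of all genes tested, and the median was 0.24 (0.18 on array 1 and 0.21 on array 2). The tenth was *TAF3*, a histone-fold subunit gene, at 0.66 and 0.43 on arrays 1 and 2 (mean 0.55 ± 0.16, limma adjusted p = 0.321). The lowest was *SPT15*, the TBP gene, at -0.12 and -0.68 on arrays 1 and 2 from a single probe (mean -0.40 ± 0.39).

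*TAF11*, another histone-fold gene, was almost the same on both arrays (0.33 and 0.32). *TAF1*, which encodes the scaffold of TFIID, stood at 0.02 and -0.31, *TAF7* at 0.20 and 0.10, and *TAF8* at -0.04 and -0.17 on arrays 1 and 2. *TAF4* had opposite signs on the arrays (0.40 and -0.20). Without centring the means of *TAF4* and *TAF7* were below 0.

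The TAFs shared by TFIID and SAGA had means close to each other. As centred, all 3 measured genes were positive on both arrays, beside 34.7% of all genes tested. *TAF6* stood at 0.34 and 0.64 on arrays 1 and 2, *TAF9* at 0.03 and 0.61, and *TAF12* at 0.15 and 0.62; all 3 encode histone-fold proteins. Their means ran from 0.32 to 0.49 and their median was 0.38. The 0.03 of *TAF9* on array 1 was smaller than the 0.06 that centring added there. The 4 probes of *TAF12* lay between -0.02 and 0.26 on array 1 and between 0.48 and 0.69 on array 2.

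The genes of SAGA that TFIID does not share were positive on both arrays in all 4 cases measured, of 13 in the list. Of all genes tested, 34.7% were positive on both arrays. The 4 SAGA genes had a median of 1.32 (0.72 and 2.14 on arrays 1 and 2). *SPT3* encodes a subunit that contacts TBP. It stood at 1.47 on array 1 and 2.82 on array 2, a mean of 2.14 ± 0.95 or 4.42-fold (limma adjusted p = 0.235). Of its 4 probes 2 had a value, and these differed by 0.04 on array 1 and 0.12 on array 2. After scaling the arrays nearly coincided for *SPT3*, at 2.04 ± 0.08, with an adjusted p of 0.0124.

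*SPT8* encodes the other TBP-binding subunit. It stood at 0.33 on array 1, from 1 probe, and at 2.34 on array 2, from 2. Its mean was 1.34 ± 1.43 (limma adjusted p = 0.396). Outside the shared TAFs, it was the measured SAGA gene that neither scaling called (limma adjusted p = 0.157 and 0.159). The size on array 2 was 7.16 times that on array 1, far beyond the ratio of the arrays' widths.

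In the deubiquitinase module, *UBP8*, the gene of the enzyme itself, stood at 0.67 and 1.93 on arrays 1 and 2, a mean of 1.30 ± 0.89 or 2.46-fold (limma adjusted p = 0.285). *SGF11*, whose product activates Ubp8 and holds it in the module, stood at 0.76 and 1.51 on arrays 1 and 2 from 1 probe, a mean of 1.14 ± 0.53 or 2.20-fold (limma adjusted p = 0.252). The 2 genes thus differed by less than the spread between arrays, and both were below the limit of 1 on array 1. After scaling, *UBP8* was at 1.17 with an adjusted p of 0.0439, and *SGF11* at 1.07 with 0.0325.

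Between the complexes, the median of the SAGA genes exceeded that of the TFIID genes, shared TAFs counted with TFIID, by 0.54 on array 1 and by 1.93 on array 2. On array 2 the lowest SAGA gene (1.51) was above the highest TFIID gene (0.64). On array 1 the groups overlapped: 4 of 10 TFIID genes were at or above *SPT8*, the lowest SAGA gene there. This is a description, because 2 arrays allow no exact p below 0.5 and the members were chosen with results known. In the split by need for growth, these 10 TFIID genes are essential and these 4 SAGA genes dispensable. Complex and need for growth thus cannot be told apart here. Over all measured members, the median of the 8 dispensable ones was 1.22 (0.50 and 1.72 on arrays 1 and 2). For the 17 essential ones it was 0.32 (0.15 and 0.32). With the shared TAFs counted as SAGA genes too, 7 were measured, with medians of 0.34 and 1.51 on arrays 1 and 2. The lowest of these on array 2 was 0.61, so the separation there depends on where the shared TAFs are counted. Mediator genes had a median of 0.42 over 11 measured (-0.02 on array 1 and 0.51 on array 2).

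**Figure D4:**
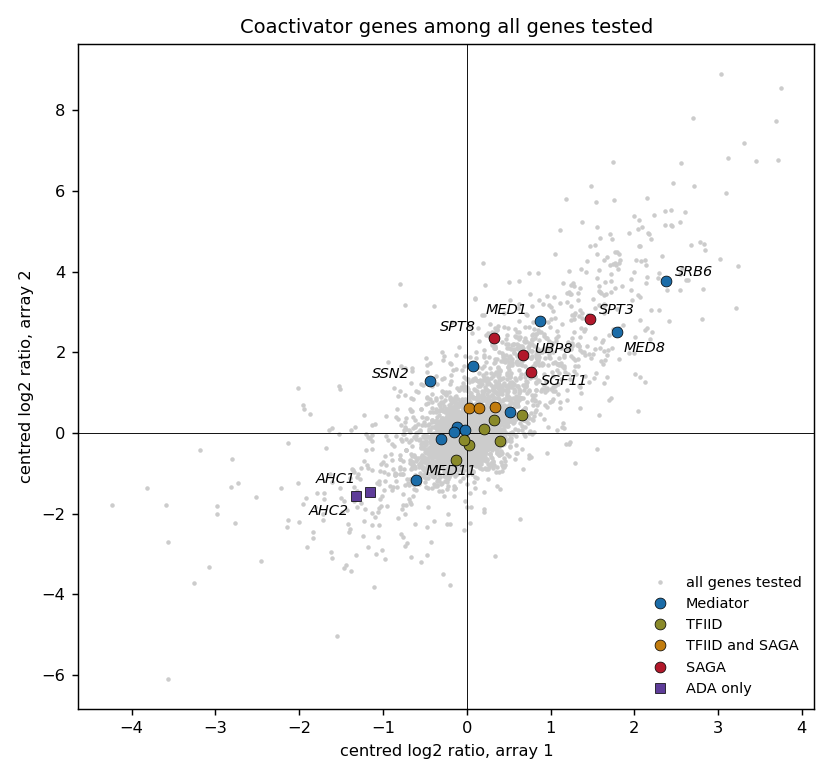
Centred log2 ratio on array 1 (horizontal axis) and array 2 (vertical axis) of all 4048 genes tested (grey) and of the coactivator genes, coloured by complex; squares are the ADA genes *AHC1* and *AHC2*. The SAGA genes that TFIID does not share and *SRB6*, *MED8* and *MED1* lie to the upper right. The TFIID genes, shared TAFs included, lie near the origin and the ADA genes to the lower left.

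ADA is a smaller acetyltransferase complex that shares Gcn5, Ada2, Ada3 (from *NGG1*) and Sgf29 with SAGA and has Ahc1 and Ahc2 as subunits of its own. Both of these genes had low ratios. *AHC1* stood at -1.15 and -1.47 on arrays 1 and 2, a mean of -1.31 ± 0.23 or 2.48-fold less in the query pool (limma adjusted p = 0.230). *AHC2* stood at -1.33 and -1.58, a mean of -1.45 ± 0.18 or 2.74-fold less (limma adjusted p = 0.227).

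On each array both ADA genes were below every SAGA gene measured. Both passed limma's test as negative after scaling (background 2.3%) and after quantile normalization (background 1.85%). At or below -1 on both arrays stood 2.03% of all genes tested. This is a description of 2 genes, from lists chosen with earlier results known. *LGE1*, which acts with the ligase Bre1 to place on histone H2B the ubiquitin that Ubp8 removes, stood at 3.04 and 8.90 on arrays 1 and 2 (mean 5.97 ± 4.14, limma adjusted p = 0.271). *LGE1* ranked 2 from the top of all 4048 genes tested. It was the 1 gene measured on the side that adds this mark. Like the 2 measured genes of the deubiquitinase module it was positive on both arrays, beside 34.7% of all genes tested. Any tie between these genes was not tested. *RAD6* and *BRE1* had no listed value, and *UBP10*, a second deubiquitinase gene, had no named probe.

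The remaining partners gave few values beyond 1. *MED6* and *SRB2*, head genes of Mediator outside the 51, lie within 100 kb of *PIH1* and were kept out of the test. *MED6* was low like other genes there, at -0.73 and -0.49 on arrays 1 and 2, whereas *SRB2* had a single value of 1.87, on array 1. The 13 measured genes of the general transcription factors had a median of -0.05, and none was beyond 1 in the same direction on both arrays. *SUA7*, the TFIIB gene, was their lowest, at -0.20 and -2.25 on arrays 1 and 2 from 1 probe (mean -1.23 ± 1.45). *TFA2*, a TFIIE gene, was their highest, at a mean of 0.49.

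The TBP regulators *MOT1*, *BUR6* and *NCB2* had means between -0.16 and -0.05. *MOT1* (0.20 and -0.48 on arrays 1 and 2) and *BUR6* (-0.22 and 0.12) had opposite signs on the arrays. Of TREX-2, an mRNA export complex that shares Sus1 with SAGA, *SEM1* alone had values. They were -0.79 on array 1 and 3.69 on array 2, in opposite directions, with an SD of 3.17.

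**Figure D5:**
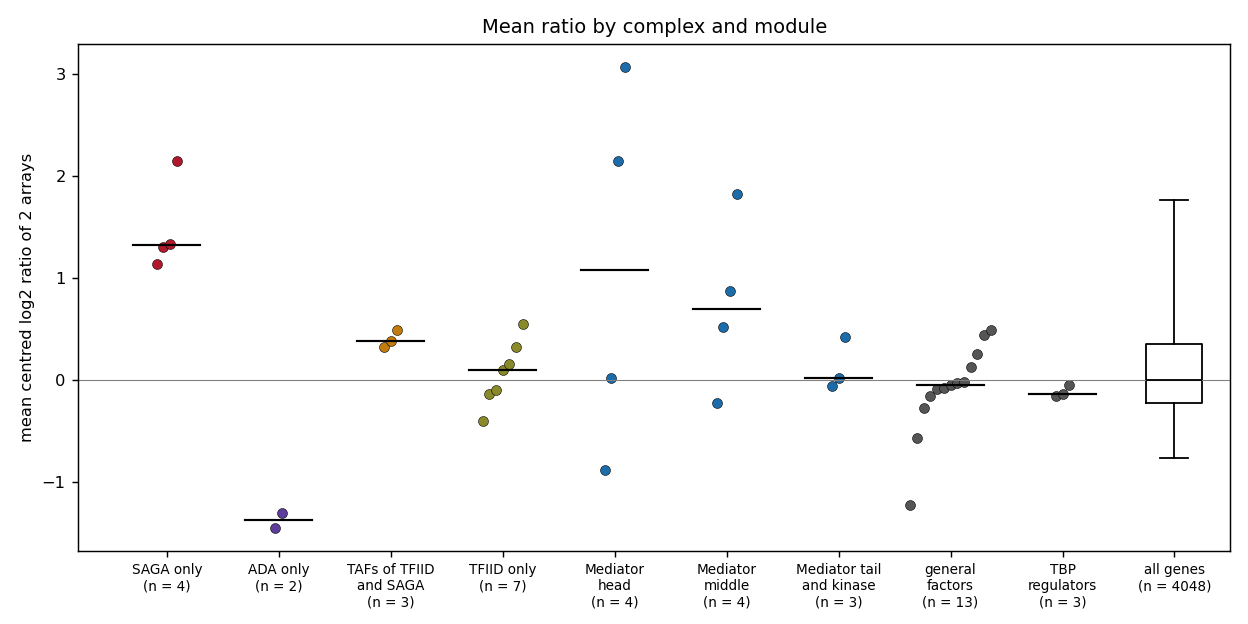
Mean centred log2 ratio of the 2 arrays (vertical axis) for each gene tested, by complex or module, with a line at the median; the box of all 4048 genes has its whiskers at percentiles 5 and 95. The 4 SAGA genes that TFIID does not share lie between 1.14 and 2.14, the 2 ADA genes at -1.31 and -1.45, and the Mediator head spans -0.89 to 3.07.

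Neighbouring genes on the chromosome were set beside the genes with the largest ratios, since an allele at one gene can touch the next. The genes flanking *SRB6* were both below 0, *DUT1* at -0.45 and *TRS20* at -0.30. Those flanking *MED8* stood at 0.06 (*RIM2*) and 0.33 (*AIM4*), and those flanking *MED1* at 0.49 (*SPE3*) and -0.39 (*YPR071W*). Around *SGF11* the neighbours *CAM1* and *ELC1* stood at 0.10 and 0.50, and 7 genes lie between *SGF11* and *LGE1*.

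*SPT3* differed in this respect. Its neighbour *SHE9* had 1.09 on array 1 and 1.21 on array 2, a mean of 1.15, also at or above 1 on both. *AHC2* lies next to *SRB8*, the Med12 gene whose single value was -1.0. Whether 1 allele touches both genes of such a pair was not tested.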

How the data were processed

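The deposited values, per the labels' protocols, come from barcodes amplified from genomic DNA with Cy3 (query) and Cy5 (reference) primers and hybridised to a 2-colour array. Each deposited value is a log ratio per probe, read here as log2; the authors' tools, build and normalization are not stated in the labels. The column medians were -0.06 and -0.27, so centring raised every ratio by that much, more on array 2 than on array 1. Array 1 listed 10998 and array 2 listed 10382 of 15744 probes. Signal over background was not analysed here, and precision is limited by the number of arrays.

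Of 5100 annotated symbols, 5034 were current in the R64 gene table and 64 were synonyms of 1 gene. Probes were averaged per gene and array. The 4196 genes with both values, less 148 within 100 kb of *PIH1* or *RSA1*, were fitted with limma 3.58.1 (R 4.3.3; intercept, eBayes) against 0 and adjusted by Benjamini-Hochberg at 0.05. The spread of the reference pool does not enter this test.

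Alternatives were no centring, scaling or quantile normalization (both over probes), the median of probes, at least 2 probes per array, linked genes kept or left out within 50 kb, robust eBayes, and 1 array left out. Members and lists were chosen with earlier results of these data known. By rule, full values were given for members beyond 1 on both arrays and for the highest and lowest of each module. Python 3.11.15 drew the figures.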

Additional observations from a re-analysis of the deposited data

How the results depend on the processing

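No paired analysis was possible because the series has 1 group. Of 25 members, 0 were called as centred, and 6 after scaling both arrays to equal median absolute deviations or after quantile normalization; in the other 6 settings with a test it was 0. The cause was not tested. Members at or above 1 on both arrays numbered 3 as centred (background 6.4%), 5 after scaling and 6 after quantile normalization. The share of all genes past 1 after either scaling was not counted, so this rise has no background beside it. With a limit of 0.5 (added after seeing the data) the count was 7 (background 13.2%), and with 1 array left out it was 3 to 9. Without replicate 1, the 9 were *MED8*, *SRB6*, *MED1*, *MED4*, *SSN2*, *SPT3*, *SPT8*, *SGF11* and *UBP8*, beside 17.2% of all genes on array 2 against 6.92% on array 1. The count at or below -1 was 0 as centred (background 2.03%), 1 (*MED11*) with a limit of -0.5, and 0 to 1 with 1 array left out. For this negative side, no share of all genes was counted at -0.5 or with 1 array left out.

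The median over members stayed between 0.20 and 0.51 in every setting run. Signs turned for means near 0: *SRB4* to -0.15 without centring, -0.024 after scaling and -0.026 after quantile normalization, and *NUT1* to -0.15, *TAF4* to -0.068 and *TAF7* to -0.012 without centring. With 1 array left out, *SRB4* ran from -0.11 to 0.14, *NUT1* from -0.022 to 0.062, *SSN2* from -0.44 to 1.28, *SSN8* from -0.15 to 0.028, *TAF1* from -0.31 to 0.023 and *TAF4* from -0.20 to 0.40. The test needs both arrays, so calls were not counted with 1 left out. Single-probe genes (8 of 25, among them *MED11* and *SGF11*) have no check between probes.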
